A study of Homo sapiens with 65 samples.

Results

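Hyaluronidase given from day 2.5 to day 4.5 (the late exposure) was compared with no enzyme in left-ventricular cardioids collected at day 4.5. Cardioids are self-organising aggregates grown from human pluripotent stem cells that model early heart tissue. The libraries were chosen by sample title and matched by line: 3 exposed and 3 untreated, which makes 6 of the 65 libraries of the series. All 6 came from WTC-11, an induced pluripotent stem cell line, with the genotype given as WT, and each library pooled 8 cardioids. The 3 lines carry the names TNNI1, WT and TNNT2. The labels do not say how these lines differ, so the lines named TNNI1 and TNNT2 are not to be confused with the sarcomere genes of those names. Both groups went through the same left-ventricular protocol: mesoderm induction with FGF2, LY294002, Activin A, BMP4 and CHIR99021, then patterning with BMP4, FGF2, insulin, the WNT inhibitor C59 and retinoic acid. The dose and source of the enzyme are not given in the sources used here. Other groups enter only where named: an early exposure from day 1.5 in the same lines, the late exposure continued to day 7.5, and, in separate libraries, clones labelled HAS2 knockout (KO) with their wild type.

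Hyaluronan is a very long, unsulfated sugar polymer that synthases such as HAS2 extrude through the plasma membrane and hyaluronidases cut into short pieces. It binds receptors such as CD44 and HMMR, and link proteins such as HAPLN1 tie it to large proteoglycans such as versican. In the embryonic heart it fills the cardiac jelly, the hydrated matrix between the muscle layer and the inner lining. Between the mesoderm stage and the first beating, cardiac progenitors switch on the genes of the sarcomere: thick filaments of myosin, thin filaments of actin with troponin and tropomyosin, and the Z-discs that anchor them.

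RNA was read with a 3′ mRNA kit (QuantSeq FWD), so each gene is counted from reads near its transcript's end. The 6 libraries held 1126042 to 1559861 counts, and 3 counts, taken as the floor of detection, corresponded to 1.92 to 2.66 CPM, the count scaled to a library total of 1000000. Between libraries of 1 group the counts varied more than counting alone gives: chi-square over its degrees of freedom was 2.74 to 6.97, where 1 would be counting error. CPM values below are given in the order of the lines TNNI1, WT and TNNT2. Fold changes are log2 values of late over untreated with their standard error (SE), and adjusted p-values are those of edgeR's quasi-likelihood test with Benjamini-Hochberg adjustment over 12748 genes. In pooled bulk samples fewer cells of a type and less RNA per cell cannot be told apart. The labelled cell type, cardiac progenitor, was checked against the cardiomyocyte markers TNNT2, MYH6, MYL7, ACTN2, NKX2-5, TTN, MYL4 and TNNI1. All 8 had counts in both groups, and their summed level was 46730 CPM, 29816 CPM and 23881 CPM untreated and 32166 CPM, 26450 CPM and 18025 CPM after the enzyme, so each line was lower after the enzyme, while the ranges of the 2 groups overlapped and the line TNNI1 was highest in each. The titin gene TTN alone made up 26570, 19480 and 14492 CPM of the untreated sums and 21196, 18228 and 11630 CPM of the exposed ones.

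The late exposure changed 28 of 12748 genes (0.220%): 19 fell (0.149%) and 9 rose (0.0706%). The genes that fell included the Z-disc protein gene MYOZ2, the dystrophin gene DMD, the actin-binding and membrane genes TAGLN and ANXA2, the keratin gene KRT18, the laminin gene LAMA1 and 3 genes of sterol metabolism. Among the genes that rose were the hyaluronan link protein gene HAPLN1, the collagen gene COL8A1, the FGF feedback inhibitor SPRY2 and the BMP-binding protein gene BMPER. In all 28 genes every exposed library lay on 1 side of every untreated library, against 2082 of all genes tested (16.3%), and the direction was the same in 3 of 3 lines (18.8% of all genes were lower and 17.9% higher in all 3). The 28 genes were picked by a test on these same libraries, so neither count is independent evidence for the calls. With line as a block the same test called 55 genes (0.431%), 17 higher (0.133%) and 38 lower (0.298%), and held all 28. The calls rested on few libraries: none was past the threshold in every fit with 1 of the 6 libraries left out, and the count fell to 0 without the exposed library of line WT or without that of line TNNT2. Without the exposed library of line TNNI1 the test called 10 genes, and 8 of these were among the 28. Without the untreated library of line TNNI1, WT or TNNT2 it called 18, 18 or 11 genes, of which 12, 16 or 10 were among the 28. DMD, ANXA2, TAGLN, KRT18, TMEM97 and BMPER were past the threshold in 4 of those 6 fits, while ACAT2, HAPLN1, GNG11, PPFIA2, COL8A1 and the antisense gene ENSG00000228835 were among the 7 past it in none of them. No called gene changed sign in any of the 15 alternatives, over which the highest adjusted p of a called gene lay between 0.216 (KRT18) and 0.806 (ENSG00000228835).

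**Figure D1:**
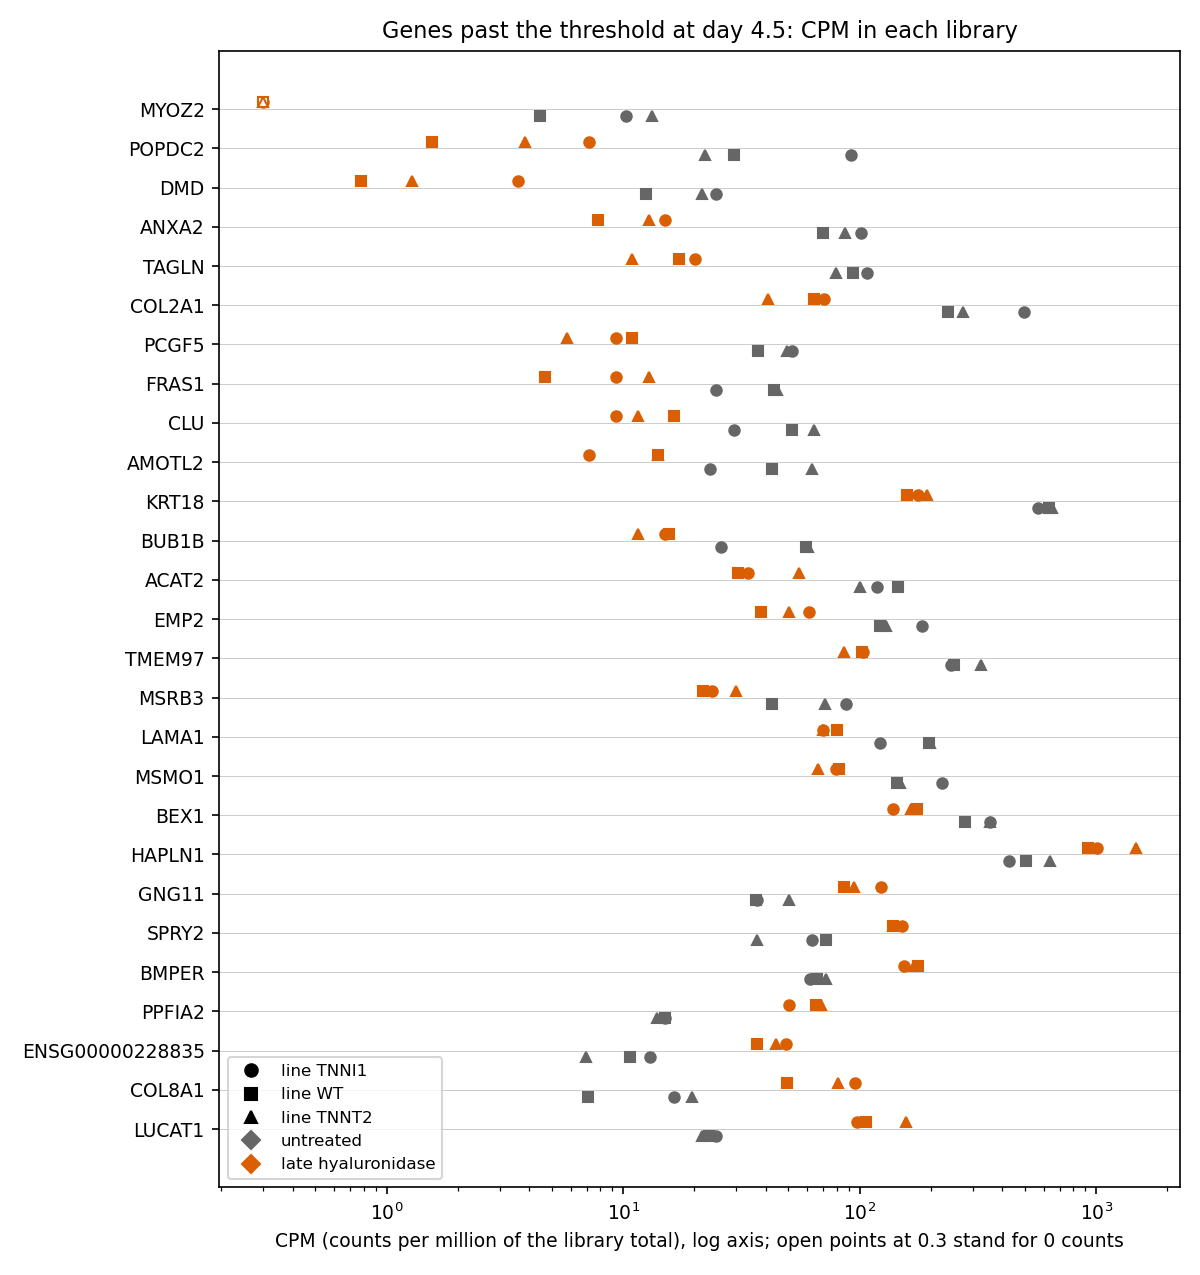
CPM in each of the 6 libraries (log axis) for 27 of the 28 genes past the threshold, ordered by fold change, with grey for untreated, orange for late hyaluronidase and the marker shape for the line. Grey and orange points are apart in every row, and MYOZ2 had 0 counts in all 3 exposed libraries (open points, drawn at 0.3).

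MYOZ2 (ENSG00000172399, chr4:119135784-119187789) encodes a Z-disc protein that binds calcineurin and alpha-actinin. Its counts were 15, 5 and 19 in the untreated libraries and 0 in all exposed libraries. Taking 3 counts per exposed library, it was at least 4.34-fold lower (adjusted p = 0.0228). The sequence upstream of its RefSeq start is shown because it holds a match to the MEF2-type motif CTANNNNTAG, a kind of site found at many muscle genes, 52 to 43 bases before the start. It also holds 1 match to CCAAT, and both are in capitals (250 bases, chr4:119135582-119135831, plus strand, GRCh38.p14, RefSeq).
MYOZ2: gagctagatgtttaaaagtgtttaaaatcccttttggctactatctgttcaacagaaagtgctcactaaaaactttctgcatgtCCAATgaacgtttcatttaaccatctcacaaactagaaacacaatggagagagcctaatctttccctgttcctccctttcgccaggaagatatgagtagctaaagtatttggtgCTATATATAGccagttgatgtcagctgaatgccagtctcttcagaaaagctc
Over both strands, 827 of 35116 promoters of that length (2.36%) hold the MEF2-type motif. A match is a description of the letters and not a binding site.

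2 genes of the muscle membrane fell with it. DMD (chrX:31097677-33339441) encodes dystrophin, which links actin to the membrane complex that grips the basement membrane. It was at 24.6, 12.4 and 21.6 CPM untreated and at 3.59, 0.781 and 1.28 CPM after the enzyme, a log2 fold change of −3.36 ± 0.51 (adjusted p = 0.00428). The exposed values of lines WT and TNNT2 rest on 1 and 2 counts. POPDC2 (chr3:119636457-119665324) encodes a Popeye-domain protein that binds cAMP in heart muscle membranes. Its level was 91.4, 29.3 and 22.3 CPM untreated and 7.19, 1.56 and 3.85 CPM exposed (−3.52 ± 0.66, adjusted p = 0.0228), and it overlaps COX17 on the same strand. Of 13 tested members of the dystrophin and membrane list, these 2 were called lower and 0 higher, with a median log2 fold change of −0.57 against −0.01 over all genes tested. The sarcoglycans SGCA, SGCB and SGCE and sarcospan, SSPN, which sit with dystrophin in the membrane, lay between 0.02 and 0.48, and the dystrophin paralog UTRN was at −0.29, all without passing the test.

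The sarcomere itself gave no call beyond MYOZ2. Of 12 thick filament genes 0 passed the test (median −1.09, 11 of 12 negative), and of 12 thin filament genes 0 passed (median −0.71, 11 of 12 negative). All 16 tested Z-disc genes had negative fold changes, with MYOZ2 the 1 that was called (median −0.73). Of all genes tested 50.9% had a negative fold change. The atrial-type light chain MYL7 came closest: it was at 4688, 1409 and 1590.5 CPM untreated and at 633, 144 and 141 CPM exposed (−3.10 ± 0.70, adjusted p = 0.0787, and 0.0748 with the line as a block). Every exposed library was below every untreated library, while the line TNNI1 was the highest in each group. Troponin C, TNNC1, was at 679, 185 and 172 CPM untreated and 147, 50.0 and 67.3 CPM exposed (adjusted p = 0.216). The Z-disc cross-linker ACTN2 was at 245, 99.5 and 125 CPM and 81.2, 55.4 and 60.3 CPM (adjusted p = 0.251), again without overlap. Troponin T, TNNT2, overlapped: 4778, 2828 and 2303 CPM untreated and 3780.2, 3191 and 2039 CPM exposed (−0.17 ± 0.47, adjusted p = 1). So did the gene TNNI1 (0.14 ± 0.46). The myosin heavy chain gene MYH6 was at 6218, 3654 and 3164 CPM untreated and 3452, 2244 and 1576 CPM exposed (−0.88 ± 0.61, adjusted p = 0.92): it was lower in each line, while the ranges of the groups overlapped. The medians of these lists moved with the library left out: over 15 alternatives they ran from −1.34 to −0.51 for thick filaments, from −0.84 to −0.15 for thin filaments and from −1.14 to 0.03 for Z-discs. The value nearest to or above 0 in each case was that without the untreated library of line TNNI1.

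Transcription factors of the cardiac programme showed no call and no member under an unadjusted p of 0.05 among 19 tested (median −0.10), where 7.02% of all genes were under it. NKX2-5, a homeobox factor of heart progenitors, was at 519, 362 and 231 CPM untreated and 537, 368 and 421 CPM exposed (0.22 ± 0.36). GATA4 stood at −0.10 ± 0.22, TBX5, a factor of the left ventricle, at −0.46 ± 0.29, and MEF2C at 0.60 ± 0.49. HAND2, a factor of the second heart field and right ventricle, was at 0.71 ± 0.37. Calcium handling (13 tested, median −0.25) and pacemaking and ion channels (10 tested, median −0.13) had 0 calls. The calcium channel CACNA1C was at −1.07 ± 0.34 (adjusted p = 0.26) and the potassium channel subunit KCNIP2 at 0.95 ± 0.44 (adjusted p = 0.666). The calcium pump ATP2A2 was at 458, 265 and 273 CPM untreated and 257, 229 and 226 CPM exposed (adjusted p = 0.517). The desmosome list (13 tested, median −0.35) also had 0 calls, while 12 of its 13 members had negative fold changes. For 6 of the 13 every exposed library was below every untreated library, where 8.51% of all genes did so, and for 0 it was above.

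**Figure D2:**
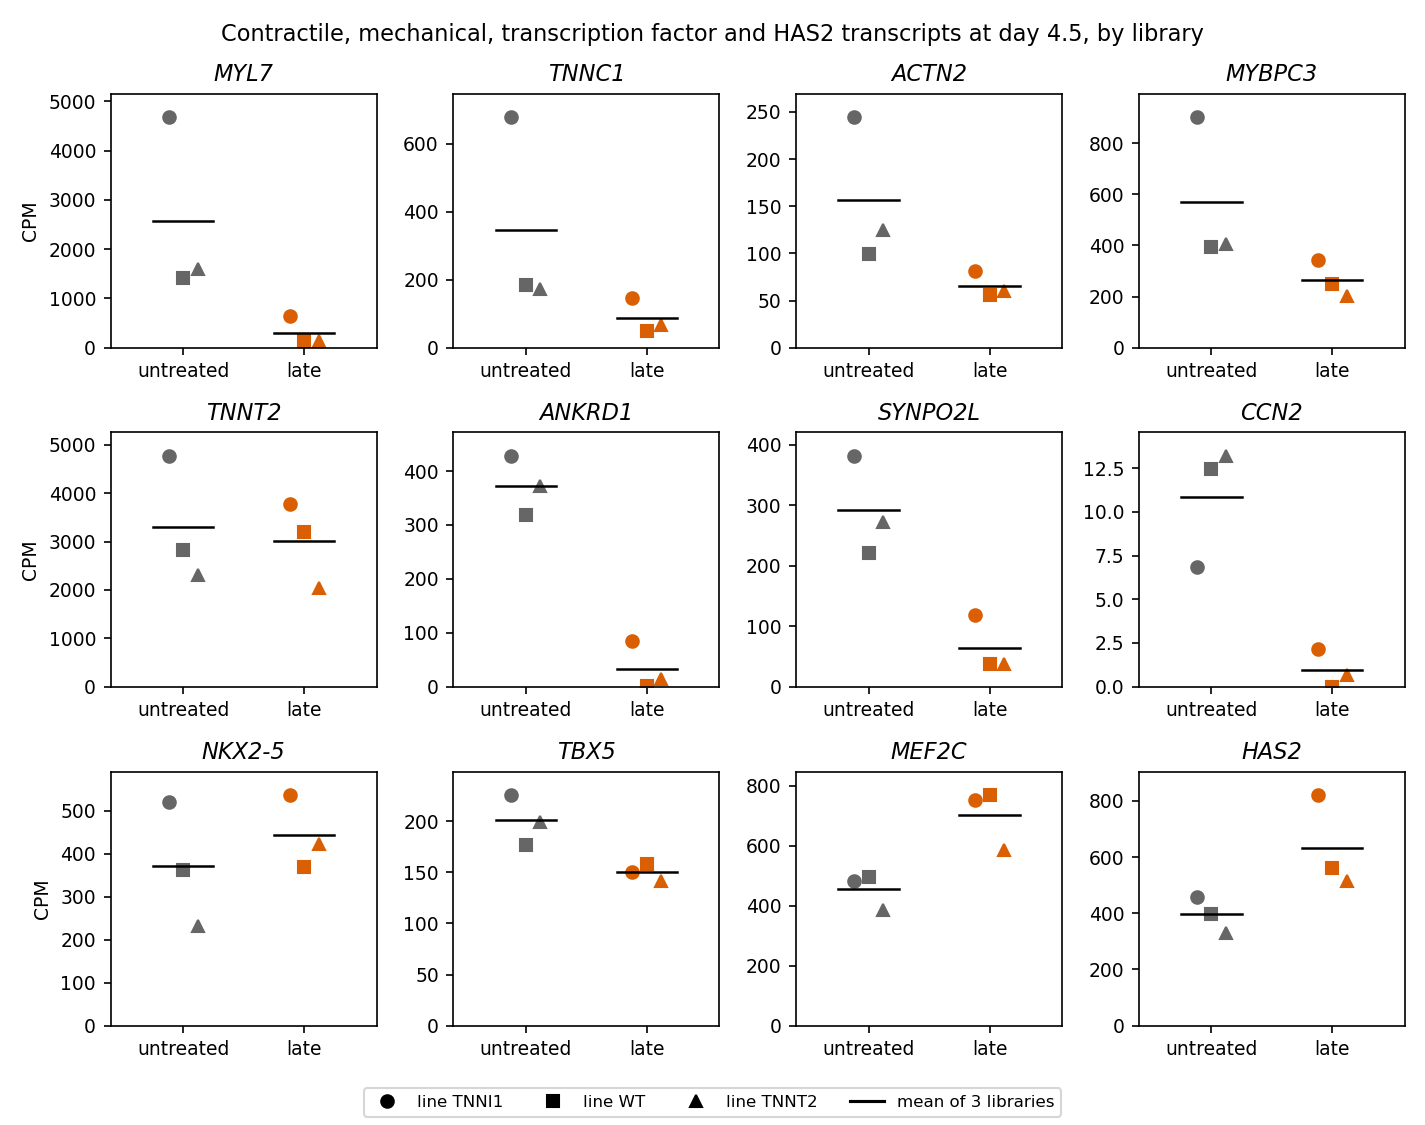
CPM on linear axes from 0 in untreated and late hyaluronidase libraries at day 4.5 for 12 transcripts, with the marker shape for the line and a bar for the mean of 3 libraries. MYL7, TNNC1, ACTN2, MYBPC3, ANKRD1, SYNPO2L, CCN2 and TBX5 lie lower after the enzyme without overlap, and MEF2C and HAS2 lie higher without overlap. TNNT2 and NKX2-5 overlap, and none of the 12 passed the test.

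Genes of the cytoskeleton and of mechanical response formed the next group. TAGLN (chr11:117199321-117204782), an actin cross-linker of smooth and early cardiac muscle, was at 108, 94.1 and 79.3 CPM untreated and 20.1, 17.2 and 10.9 CPM exposed (−2.58 ± 0.42, adjusted p = 0.00801). Reads of PCSK7 on the other strand of that locus cannot be told apart from it, since the strand setting of the counting is not given. The annexin ANXA2 (chr15:60347134-60402883), a calcium-dependent membrane and actin binder, fell from 101, 70.2 and 86.9 CPM to 15.1, 7.81 and 12.8 CPM (−2.87 ± 0.45, adjusted p = 0.00702). It was the 1 called gene of 14 annexins and partners, a list drawn up after values had been seen; its partner S100A10 was at −1.46 ± 0.54 (adjusted p = 0.438) and ANXA5 at 0.19 ± 0.40. Of 11 smooth-muscle-type cytoskeleton genes TAGLN alone was called (median −0.45). CNN1 (calponin) was at −1.10 ± 0.39 (adjusted p = 0.406) and ACTA2, smooth muscle actin, at −0.54 ± 0.46.

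AMOTL2 (chr3:134355874-134375479), an angiomotin-like junction protein that is also a target of the mechanosensitive factor YAP, was at 23.2, 42.6 and 62.6 CPM untreated and 7.19, 14.1 and 14.1 CPM exposed (−1.88 ± 0.39, adjusted p = 0.0384). It was the 1 called member of 13 natriuretic peptide and YAP target genes (median −0.61), and 5 of the 13 had an unadjusted p under 0.05 with a negative fold change, where 4.19% of all genes did. ANKRD1, a titin-associated protein induced by stretch, was at 429, 318 and 372 CPM untreated and 84.8, 1.56 and 14.1 CPM exposed. The groups did not overlap, the exposed values were very unequal, and the fold change of −3.50 ± 1.03 had an adjusted p of 0.248. CCN2, a matricellular YAP target, had 10, 14 and 19 counts untreated and 3, 0 and 1 exposed (adjusted p = 0.11). The natriuretic peptide gene NPPA had 157, 2 and 9 counts untreated and 14, 0 and 1 exposed, most of them in the line TNNI1, and the groups overlapped.

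A keratin and an epithelial membrane gene fell as well. KRT18 (chr12:52948871-52952901), an intermediate filament protein of simple epithelia, was at 566, 629.6 and 649 CPM untreated and 176, 158 and 193 CPM exposed (−1.84 ± 0.27, adjusted p = 0.00428). Its filament partner KRT8 lies beside it on the other strand, with overlapping annotation, at 350.1, 385 and 297 CPM untreated and 138, 114 and 62.8 CPM exposed (−1.74 ± 0.38). KRT8 had an adjusted p of 0.060, and of 0.00759 with the line as a block (1.2e-08 to 0.418 over its 15 alternatives). EMP2 (chr16:10528422-10580698), a small membrane protein, went from 183, 122 and 129 CPM to 61.1, 38.2 and 50.0 CPM (−1.57 ± 0.28, adjusted p = 0.0113). Of 10 tested genes of a keratin and adhesion list, also drawn up after values had been seen, all had negative fold changes, 2 were called and the median was −0.97. Epicardial markers, 10 genes of which KRT19 is 1, summed to 307 CPM, 197 CPM and 301 CPM untreated and 132 CPM, 96.8 CPM and 105 CPM exposed. KRT19, a keratin that the keratin list also holds, made up 300.3 CPM, 174 CPM and 246 CPM of the untreated sums and 131 CPM, 89.0 CPM and 99.4 CPM of the exposed ones. The defining markers ITLN1, MSLN, UPK1B and UPK3B were at 0 in both groups and WT1 had 0, 14 and 43 counts untreated and 0, 3 and 1 exposed. Their part in the result was not tested.

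**Figure D3:**
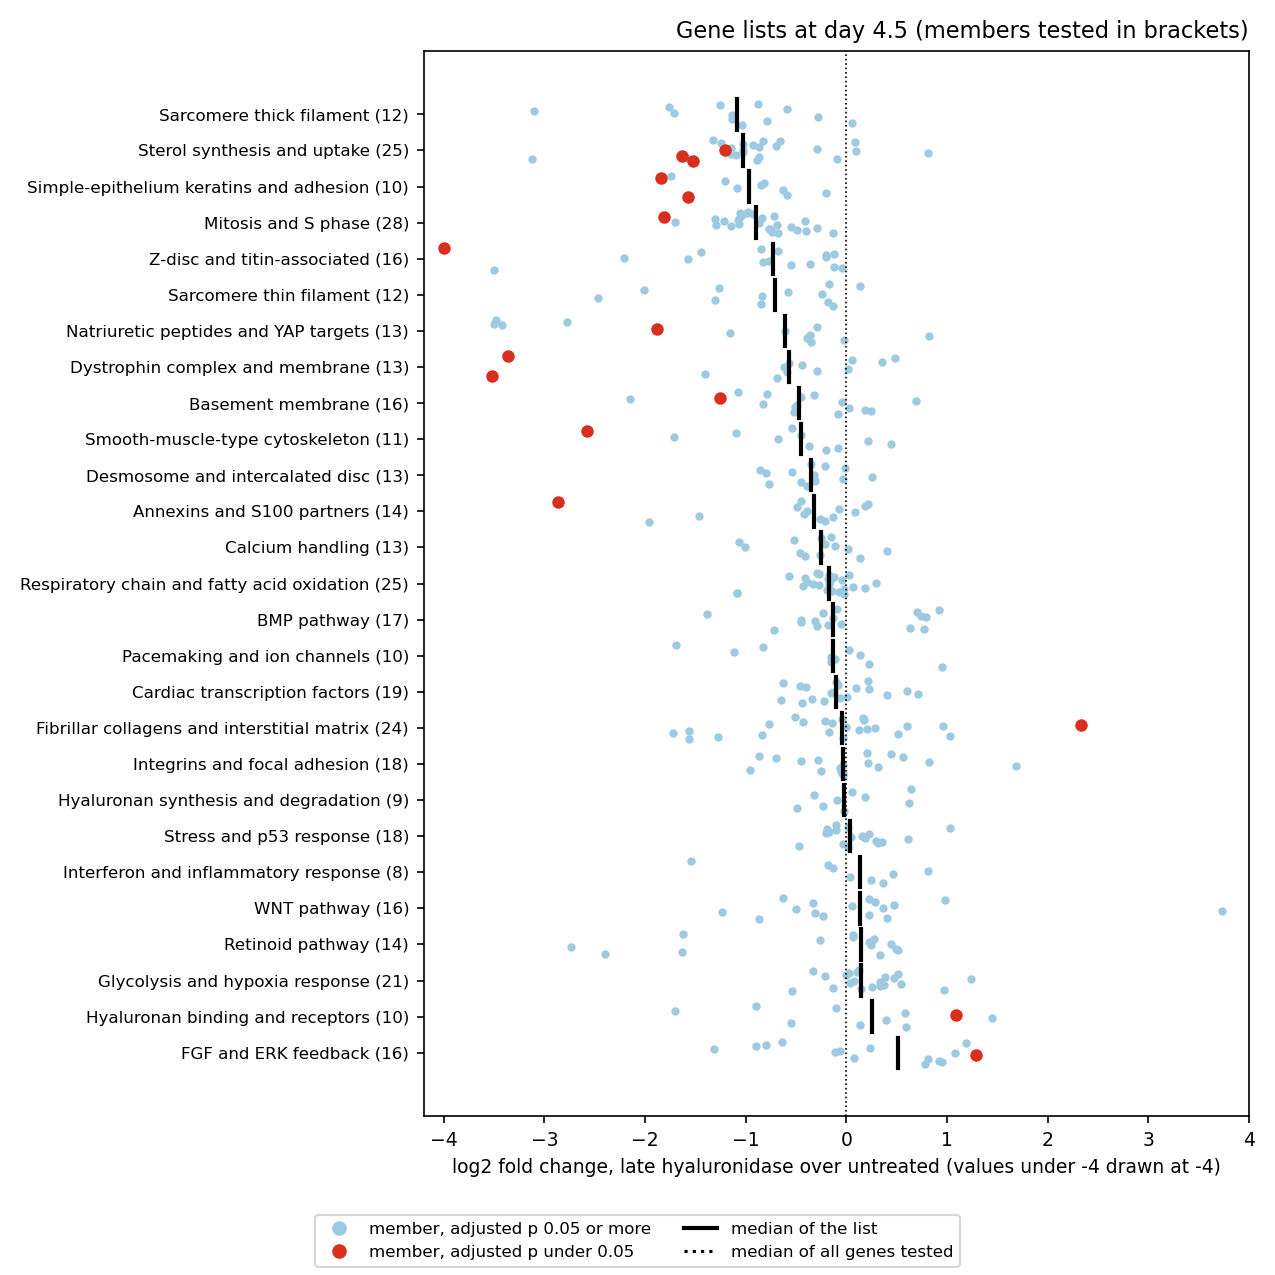
Log2 fold change of each tested member of 27 gene lists at day 4.5, ordered by the median (black bar), with called members in red and the median of all genes as a dotted line. Sarcomere, sterol, keratin and mitosis lists have the lowest medians (−1.09 to −0.71), and the FGF and ERK feedback list the highest (0.51). MYOZ2 lies beyond the axis and is drawn at its left end, and its fitted value depends on the prior count.

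In the matrix, transcripts moved both ways. COL2A1 (chr12:47972965-48004554), the fibrillar collagen of cartilage and of embryonic mesenchyme, was at 497, 237 and 273 CPM untreated and 70.4, 64 and 41 CPM exposed (−2.56 ± 0.49, adjusted p = 0.028). COL8A1 (chr3:99638475-99799226), a short-chain collagen of blood vessels, was at 16.4, 7.1 and 19.5 CPM untreated and 95.6, 49.2 and 80.8 CPM exposed (2.33 ± 0.49, adjusted p = 0.0415). The 2 collagens thus changed in opposite directions, each without overlap between groups. Among the 24 tested genes of an interstitial matrix list, which does not hold COL2A1, COL8A1 was the 1 call, and the median was −0.04. The cross-linking enzyme LOXL2 was at 76.4, 71 and 70.2 CPM untreated and 15.8, 35.1 and 25 CPM exposed, with an adjusted p of 0.0843 and of 0.0362 with the line as a block (6.8e-05 to 0.953 over 15 alternatives). COL1A1 was at −0.51 ± 0.35 and overlapped.

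2 genes of the basement membrane and the layer beneath it fell. LAMA1 (chr18:6941744-7117814), the laminin chain of the first embryonic basement membranes, was at 121, 197 and 199 CPM untreated and 69.7, 80.4 and 69.9 CPM exposed (−1.26 ± 0.23, adjusted p = 0.0152). FRAS1 (chr4:78057570-78544269), a large protein of the zone beneath that membrane, was at 24.6, 43.5 and 44.5 CPM and 9.34, 4.68 and 12.8 CPM (−2.06 ± 0.44, adjusted p = 0.0414). Of 16 tested basement membrane genes LAMA1 was called, and 9 had every exposed library below every untreated library, where 8.51% of all genes did (median −0.47). COL4A1, which forms the network collagen, was at −1.08 ± 0.34 (adjusted p = 0.251) and LAMB1, the beta chain that pairs with LAMA1, at −0.83 ± 0.29 (adjusted p = 0.37). LAMA4, the laminin of vessels, was at 0.69 (adjusted p = 0.886). Integrins and focal adhesion genes (18 tested) had 0 calls and a median of −0.03.

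The enzyme's own substrate pathway showed 1 call. HAPLN1 (chr5:83637805-83721613), which ties hyaluronan to proteoglycans, rose from 427, 504 and 636 CPM to 1008, 927 and 1474 CPM (1.09 ± 0.23, adjusted p = 0.0414). It was the 1 called gene of 10 tested hyaluronan binders and receptors (median 0.26). The receptor HMMR, also a mitotic gene, was at −0.90 ± 0.34 (adjusted p = 0.448). HAS2, the synthase, was at 459, 398 and 331 CPM untreated and 822, 562 and 514 CPM exposed: all exposed libraries were higher, yet the fold change of 0.64 ± 0.29 had an adjusted p of 0.638 in edgeR's test. With the 6 compared libraries alone and the line as a block, an alternative added after the data were seen, HAS2 was called (0.63, adjusted p = 2.4e-04 by edgeR). That setting called many more genes than the main fit, with the counts given in the last section. UGP2, which makes the precursor UDP-glucose, was at −0.49 ± 0.23 (adjusted p = 0.681), and UGDH, the next enzyme towards hyaluronan, at −0.23 ± 0.32. Of 9 tested genes of hyaluronan synthesis and degradation 0 were called. HAS1, HAS3, HYAL1 and 3 others of the 15 listed did not pass the filter on low counts.

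3 of the genes that fell belong to sterol metabolism. Cholesterol is built from acetyl-CoA through mevalonate, farnesyl diphosphate, squalene and lanosterol, and the genes of the route share regulation by the factor SREBP2 (SREBF2) when cell sterol is low. TMEM97 (chr17:28319095-28328685), the sigma-2 receptor that binds sterols, was at 242, 251 and 325 CPM untreated and 103, 102 and 85.9 CPM exposed (−1.52 ± 0.26, adjusted p = 0.00801). MSMO1 (chr4:165327623-165343160), the methylsterol oxidase downstream of lanosterol, was at 222, 144 and 147 CPM untreated and 79.1, 82 and 66.7 CPM exposed (−1.21 ± 0.22, adjusted p = 0.0152). ACAT2 (chr6:159760328-159779055), the thiolase that joins the first acetyl units, was at 118, 146 and 100.1 CPM untreated and 33.8, 30.4 and 55.1 CPM exposed (−1.63 ± 0.33, adjusted p = 0.0297). No exposed library reached the lowest untreated library in any of these 3 genes. Annotated genes overlap TMEM97 (IFT20) and ACAT2 (SOD2 and TCP1) on the other strand. The sequences before the RefSeq starts of MSMO1 and TMEM97 are shown because both hold several CCAAT boxes, in capitals on either strand (ATTGG on the reverse), the box bound by the factor NF-Y that works with SREBP at such genes (250 bases each, plus strand, GRCh38.p14, RefSeq, at chr4:165327419-165327668 and chr17:28318950-28319199).
MSMO1: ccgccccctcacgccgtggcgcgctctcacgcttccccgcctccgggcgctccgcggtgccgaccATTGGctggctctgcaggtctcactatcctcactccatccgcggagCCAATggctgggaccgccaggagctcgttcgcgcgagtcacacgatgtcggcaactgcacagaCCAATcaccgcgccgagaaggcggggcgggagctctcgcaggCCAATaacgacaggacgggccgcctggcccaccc
TMEM97: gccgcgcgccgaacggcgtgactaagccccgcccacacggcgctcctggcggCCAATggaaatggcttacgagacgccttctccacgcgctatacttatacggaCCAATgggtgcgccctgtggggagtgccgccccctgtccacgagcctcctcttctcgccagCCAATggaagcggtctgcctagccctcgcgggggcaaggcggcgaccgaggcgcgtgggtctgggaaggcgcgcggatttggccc
MSMO1 holds 4 matches and TMEM97 holds 3. Of 35116 promoters, 32.0% hold at least 1 and 2.93% hold 3 or more.

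Along the route, 22 of 25 tested sterol genes had negative fold changes, 3 were called (5 with the line as a block) and the median was −1.03. The list was drawn up after fold changes of this comparison had been seen, so it is no independent evidence of its direction. Every exposed library was below every untreated library for 20 of the 25, where 8.51% of all genes did so. HMGCS1, which commits acetyl units to mevalonate, was at 758, 788 and 764 CPM untreated and 296, 306 and 347 CPM exposed (−1.32 ± 0.30, adjusted p = 0.0729). FDPS, which makes farnesyl diphosphate, was at 347, 226 and 273 CPM untreated and 173, 119 and 163 CPM exposed (−0.93 ± 0.21, adjusted p = 0.0568), and was called with the line as a block (adjusted p = 0.0251; over 15 alternatives, 2.4e-05 to 0.722). INSIG1, the sterol sensor that holds SREBP back, was at −1.58 ± 0.40 (adjusted p = 0.11). Against these, SREBF2 itself was at −0.09 ± 0.18, and SC5D, a late step, was at 338, 321 and 279 CPM untreated and 637, 544 and 496 CPM exposed (0.81 ± 0.30, adjusted p = 0.462). Over the 15 alternatives the list's median stayed between −1.07 and −0.94, while its count of calls ran from 0, for example without the exposed library of line WT or of line TNNT2, to 20, with only the 6 libraries and the line as a block.

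**Figure D4:**
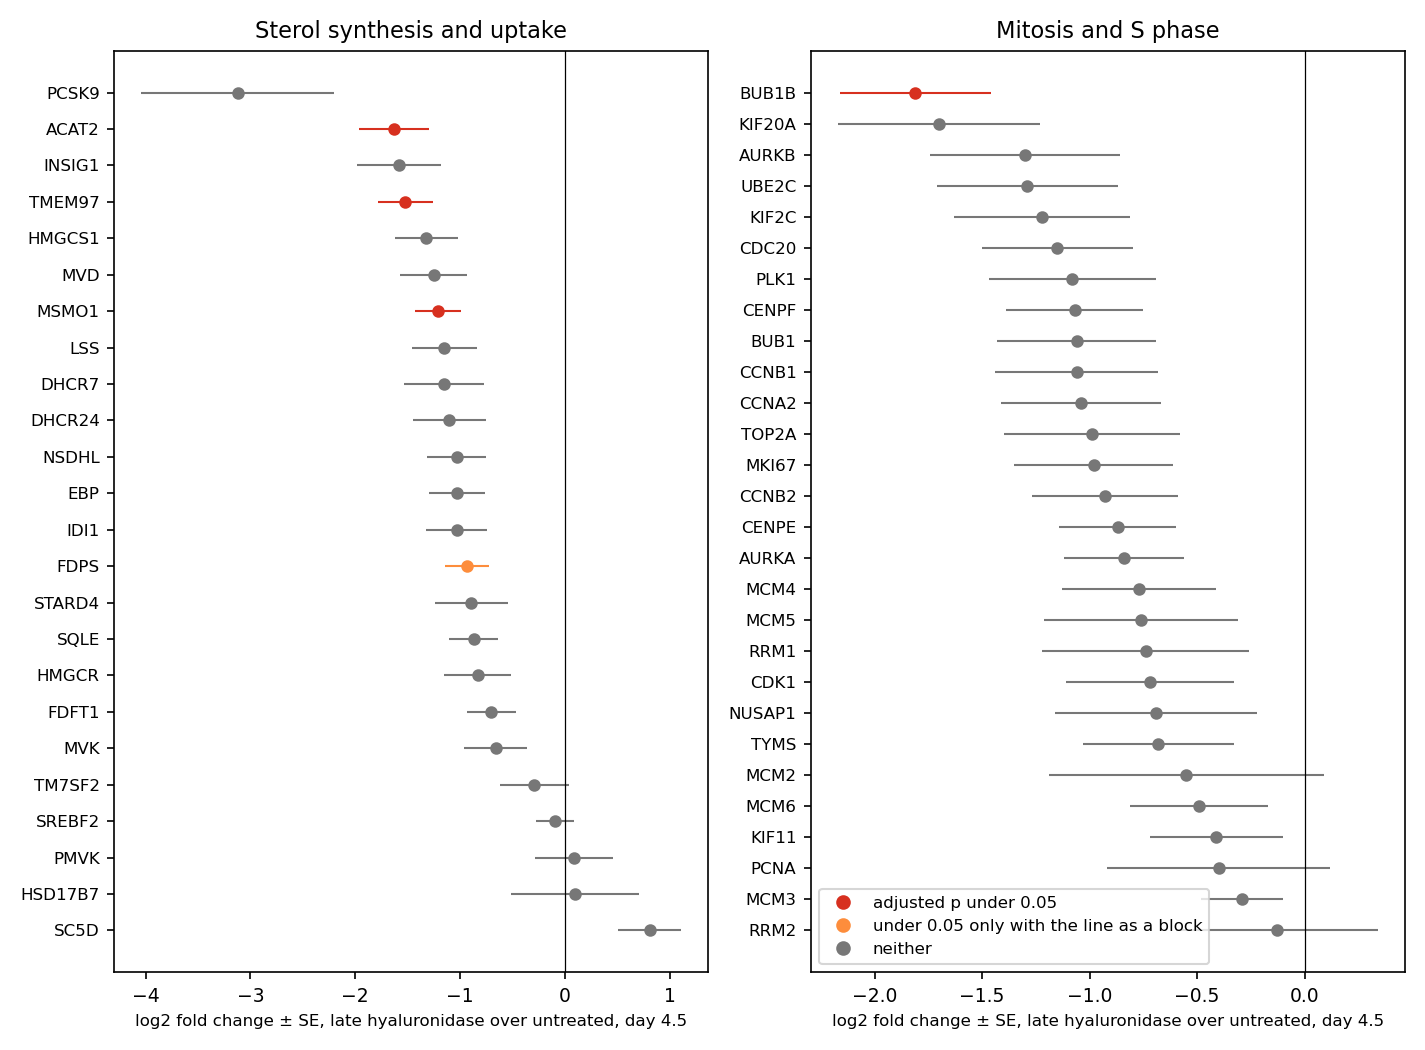
Log2 fold change ± SE, late hyaluronidase over untreated at day 4.5, for 24 of the 25 sterol genes and 28 mitosis and S phase genes, with red for genes past the threshold and orange for those past it only with the line as a block. ACAT2, TMEM97, MSMO1 and BUB1B are red, FDPS is orange, and all 28 cell cycle genes lie left of 0.

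Cell cycle genes had 1 call, BUB1B (chr15:40161023-40221136), the checkpoint kinase BUBR1 that delays anaphase until chromosomes attach. It was at 25.9, 59.5 and 60.5 CPM untreated and 15.1, 15.6 and 11.5 CPM exposed (−1.81 ± 0.35, adjusted p = 0.0228), with line TNNI1 the least changed, and the readthrough gene BUB1B-PAK6 overlaps it. The sequence before its RefSeq start is shown because it holds the CHR-type motif TTTGAA, in capitals, 23 to 18 bases before the start, a motif known from genes of the late cell cycle (250 bases, chr15:40160819-40161068, plus strand, GRCh38.p14, RefSeq).
BUB1B: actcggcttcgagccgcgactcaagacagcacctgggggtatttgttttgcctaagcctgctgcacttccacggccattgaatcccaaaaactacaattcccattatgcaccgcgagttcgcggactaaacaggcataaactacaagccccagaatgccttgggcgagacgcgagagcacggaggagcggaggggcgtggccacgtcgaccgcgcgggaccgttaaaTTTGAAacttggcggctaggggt
TTTGAA is present on either strand in 13.3% of 35116 promoters. All 28 tested genes of mitosis and S phase had negative fold changes, where 50.9% of all genes did. They lay between −1.81 and −0.13, with a median of −0.90. Of them 17 had an unadjusted p under 0.05, where 4.19% of all genes had one in that direction. In addition, 20 had every exposed library below every untreated one, where 8.51% of all genes did. KIF20A, a mitotic kinesin, was at 19.1, 22.2 and 42.4 CPM untreated and 7.91, 8.59 and 9.62 CPM exposed (adjusted p = 0.16). MKI67, the proliferation antigen, was at 240.2, 325 and 391 CPM untreated and 175, 136 and 183 CPM exposed (adjusted p = 0.463). The replication licensing genes MCM2, MCM3, MCM4, MCM5 and MCM6 were at −0.55, −0.29, −0.77, −0.76 and −0.49, with 0 of the 5 called. The list's median ran from −1.05 to −0.75 over the alternatives.

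3 genes of signalling rose. SPRY2 (chr13:80335976-80340951), which FGF and ERK signalling induces and which dampens that signalling, was at 62.8, 71.9 and 36.9 CPM untreated and 151, 139 and 138 CPM exposed (1.29 ± 0.25, adjusted p = 0.0228). Of 16 tested genes of FGF and ERK feedback SPRY2 was called, and 6 had an unadjusted p under 0.05 with a positive fold change, where 2.83% of all genes had one in that direction (median 0.51). The same number, 6, had every exposed library above every untreated library, where 7.82% of all genes did. DUSP6, the ERK phosphatase, was at 324, 587 and 308 CPM untreated and 643, 961 and 748 CPM exposed (0.92 ± 0.27, adjusted p = 0.224). SPRY1 was at 1.08 ± 0.35 and the ETS factor ETV5 at 0.78 ± 0.26 (adjusted p = 0.305 and 0.317), whereas the receptor FGFR2 was at −1.31 (adjusted p = 0.666). BMPER (chr7:33904308-34156356), which binds BMPs outside the cell, was at 61.4, 65.7 and 72.3 CPM untreated and 154, 177 and 169 CPM exposed (1.29 ± 0.22, adjusted p = 0.00957). GNG11 (chr7:93921699-93928610), a G protein gamma subunit, was at 36.9, 36.4 and 50.1 CPM untreated and 124, 85.9 and 94.2 CPM exposed (1.27 ± 0.27, adjusted p = 0.0414). The BMP (17 tested), WNT (16) and retinoid (14) lists had 0 calls and medians of −0.13, 0.14 and 0.15. The BMP list does not hold BMPER.

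Further genes that rose or fell belong to none of these groups. PPFIA2 (chr12:81257975-81759553), a liprin scaffold known best from synapses, was at 15, 15.1 and 13.9 CPM untreated and 50.3, 65.6 and 68.6 CPM exposed (2.03 ± 0.42, adjusted p = 0.0358). ACSS3 overlaps PPFIA2 on the other strand. LUCAT1, a non-coding RNA annotated antisense to ADGRV1, was at 24.6, 23.1 and 21.6 CPM untreated and 97, 106 and 157 CPM exposed (2.34 ± 0.43, adjusted p = 0.0183). ENSG00000228835, antisense to KLHL14, was at 13, 10.7 and 6.95 CPM and 48.9, 36.7 and 44.2 CPM (adjusted p = 0.0452). Without a stated strand setting neither antisense gene can be separated from its partner. PCGF5 (chr10:91163012-91284331), a subunit of a Polycomb repressive complex, was at 51.9, 37.3 and 49.4 CPM untreated and 9.34, 10.9 and 5.77 CPM exposed (−2.45 ± 0.42, adjusted p = 0.00914). CLU, the extracellular chaperone clusterin, was at 29.3, 51.5 and 64 CPM untreated and 9.34, 16.4 and 11.5 CPM exposed (adjusted p = 0.0113). MSRB3, a methionine sulfoxide reductase, was at 87.4, 42.6 and 71.6 CPM and 23.7, 21.9 and 30.1 CPM (adjusted p = 0.0358), and BEX1 at 356, 279.7 and 355 CPM and 138, 174 and 165 CPM (adjusted p = 0.0336).

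With the line as a block 27 more genes passed. Of the 8 with the smallest adjusted p, 4 were higher and 4 lower. DRP2, the dystrophin-related protein, was at 4.09, 5.33 and 5.56 CPM untreated and 23.7, 12.5 and 36.5 CPM exposed (adjusted p = 0.0070 with the block and 0.0817 without), the opposite direction to DMD. MECOM, a zinc finger factor, was at 25.3, 55.9 and 52.9 CPM untreated and 90.6, 106 and 148 CPM exposed (adjusted p = 0.0203 with the block and 0.0786 without). IRX3, a homeobox factor of trabecular heart muscle, overlapped between groups at 1012, 423 and 419 CPM untreated and 1660.4, 826 and 1262 CPM exposed, while each line was higher after the enzyme (adjusted p = 0.0186 with the block and 0.243 without). NR2F2, a nuclear receptor of atrial and venous cells, was at 18.4, 33.7 and 86.2 CPM untreated and 10.1, 3.12 and 12.8 CPM exposed (adjusted p = 0.0186 with the block and 0.0826 without). The others were PDE1B (higher), KRT8, IGFBP3 and ADAMTS15 (lower). Over the 15 alternatives the adjusted p of these 8 genes ran from 1.2e-08 to 0.999.

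Lists without a call covered metabolism and stress. The respiratory chain and fatty acid oxidation (25 tested) had a median of −0.17, glycolysis and hypoxia (21) 0.15, stress and p53 (18) 0.04 and the interferon response (8) 0.14. Of the marker lists for other cells, endothelial genes summed to 139 CPM, 189 CPM and 174 CPM untreated and 244 CPM, 229 CPM and 271 CPM exposed, with 0 of 7 tested members called and SOX18 at 0 in both groups. KDR, a growth factor receptor also listed with early mesoderm, made up 109 CPM, 141 CPM and 115 CPM of the untreated sums and 153 CPM, 190 CPM and 173 CPM of the exposed ones. All 7 fitted fold changes were positive, but the median within each line was 1.02, −0.29 and 0.97, and TIE1, EGFL7, ESAM and ETV2 were lower after the enzyme in line WT. PECAM1, the endothelial adhesion protein, had 5, 2 and 2 counts untreated and 26, 3 and 15 exposed, and the groups overlapped. Endoderm markers summed to 242 CPM, 87.0 CPM and 86.2 CPM untreated and 122 CPM, 60.9 CPM and 53.9 CPM exposed, and AFP and HNF4A were at 0 in all exposed libraries. AFP was near the floor untreated, at 4.09, 3.55 and 2.09 CPM, and was not called, and HNF4A was not among the tested members. Most of the endoderm sum came from the apolipoprotein genes APOA1 and APOB. CXCR4, a chemokine receptor, was on the other side, at 4.09 CPM, 0.888 CPM and 1.39 CPM untreated and at 6.47 CPM, 5.46 CPM and 10.3 CPM exposed (1.68 ± 0.84, not called), and SOX17 was at 1.23 ± 1.37. Early mesoderm markers summed to 794 CPM, 845 CPM and 819 CPM untreated and 1092 CPM, 905 CPM and 1123 CPM exposed, without overlap. Of 10 tested members 8 had positive fold changes and 0 were called (median 0.51), with the transcription factor gene LHX1 at 1.43 ± 0.64. Most of the early mesoderm sum came from HAND1, PDGFRA, KDR and LHX1. HAND1 was at 340, 345 and 357 CPM untreated and 313, 286 and 359 CPM exposed. LHX1 was at 152, 62.2 and 68.8 CPM untreated and 314, 98.4 and 376 CPM exposed. TBXT and MSGN1 were at 0 in both groups, GSC and MESP2 at 0 untreated and TBX6 at 0 exposed. Fibroblast, pluripotency and neural lists also had 0 calls. The part of these markers in the results above was not tested.

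The early exposure, begun at day 1.5, shared the untreated libraries, so its values are given side by side. It called 443 genes (3.48%; 2.41% lower), 199 and 208 without the early libraries of lines TNNI1 and TNNT2 and 204 without the untreated library of line TNNI1. Thick filament genes had a median of −3.38 and 10 of 12 called lower after the early exposure, against −1.09 and 0 of 12 after the late one. Sterol genes had medians of −1.14 early and −1.03 late, and mitosis and S phase genes 0.10 early and −0.90 late. In KRT18 the log2 fold changes were −1.84 late and −1.75 early, in ANXA2 −2.87 and −2.41, and in SPRY2 1.29 and 1.31. Tested directly, late minus early, 46 of 12748 genes differed (0.361%), 35 higher (0.275%) and 11 lower (0.0863%) after the late exposure, and 96 (0.753%) with the line as a block. DMD was among them: it was at 8.07, 14.7 and 14.6 CPM after the early exposure (−0.76 early over untreated, adjusted p = 0.387) and −2.60 ± 0.53 late minus early (adjusted p = 0.0284). Of the sarcomere genes, the ventricular light chain MYL3 was also among them, at 1384, 229 and 337 CPM untreated, 399.7, 81.2 and 110.3 CPM late and 6.21, 5.19 and 1.75 CPM early (5.56 ± 1.03 late minus early, adjusted p = 0.0277). That count of 46 fell to 2 without the early library of line TNNT2 and to 3 without that of line TNNI1. It rose to 291 without that of line WT. Without the late library of line TNNI1, WT or TNNT2 it was 9, 12 or 26.

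At day 7.5, with the late exposure continued and other libraries of the same lines, 84 genes were called (0.659%), 44 higher (0.345%) and 40 lower (0.314%), and 132 (1.04%) with the line as a block. Of the 28 genes 8 were among them, including DMD and CLU lower and HAPLN1, SPRY2, BMPER, PPFIA2 and LUCAT1 higher. All 19 genes that fell at day 4.5 had negative fold changes again, and 8 of the 9 that rose had positive ones, with ENSG00000228835 the exception (−0.10 ± 0.42). HAPLN1 was at 75, 70.2 and 76.4 CPM untreated and 246, 396 and 426 CPM exposed at day 7.5 (2.20 ± 0.25, adjusted p = 4.8e-05). DMD was at 209, 169.8 and 231 CPM untreated and 80.3, 34.9 and 82.5 CPM exposed (−1.68 ± 0.31, adjusted p = 0.0142). CLU was at 32.1, 37.7 and 31.2 CPM untreated and 6.92, 12.7 and 8.51 CPM exposed (adjusted p = 0.0153). In SPRY2 the levels were 41, 44.7 and 23 CPM untreated and 83.7, 113 and 136 CPM exposed (1.55 ± 0.26). BMPER stood at 21.4, 33.8 and 25.2 CPM untreated and 47.1, 96.6 and 93.6 CPM exposed (1.48 ± 0.24), and LUCAT1 at 27.7, 26.8 and 29.7 CPM and 114, 92.6 and 187 CPM. KRT18, ANXA2 and MSMO1, called at day 4.5, were at −0.46, −0.71 and −0.41 at day 7.5 and did not pass. MYOZ2, at 0 in the exposed libraries at day 4.5, was at 14.5, 6.71 and 12.4 CPM against 18.7, 41.5 and 25.2 CPM untreated and did not pass (adjusted p = 0.316). A test of the change in effect from day 4.5 to day 7.5 called 0 genes with edgeR, where 609 (4.78%) had an unadjusted p under 0.05, and 1 gene with DESeq2. The sterol list, at a median of −1.03 at day 4.5, had 1 of 25 called and a median of 0.00 at day 7.5. Mitosis and S phase had a median of −1.15 and 2 of 28 called. The day 7.5 count ran from 3, without the exposed library of line TNNT2, through 13, 18, 26 and 27 to 377, without the untreated library of line WT. The values 13 and 26 are without the exposed libraries of lines WT and TNNI1, and 18 and 27 without the untreated ones of TNNT2 and TNNI1.

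**Figure D5:**
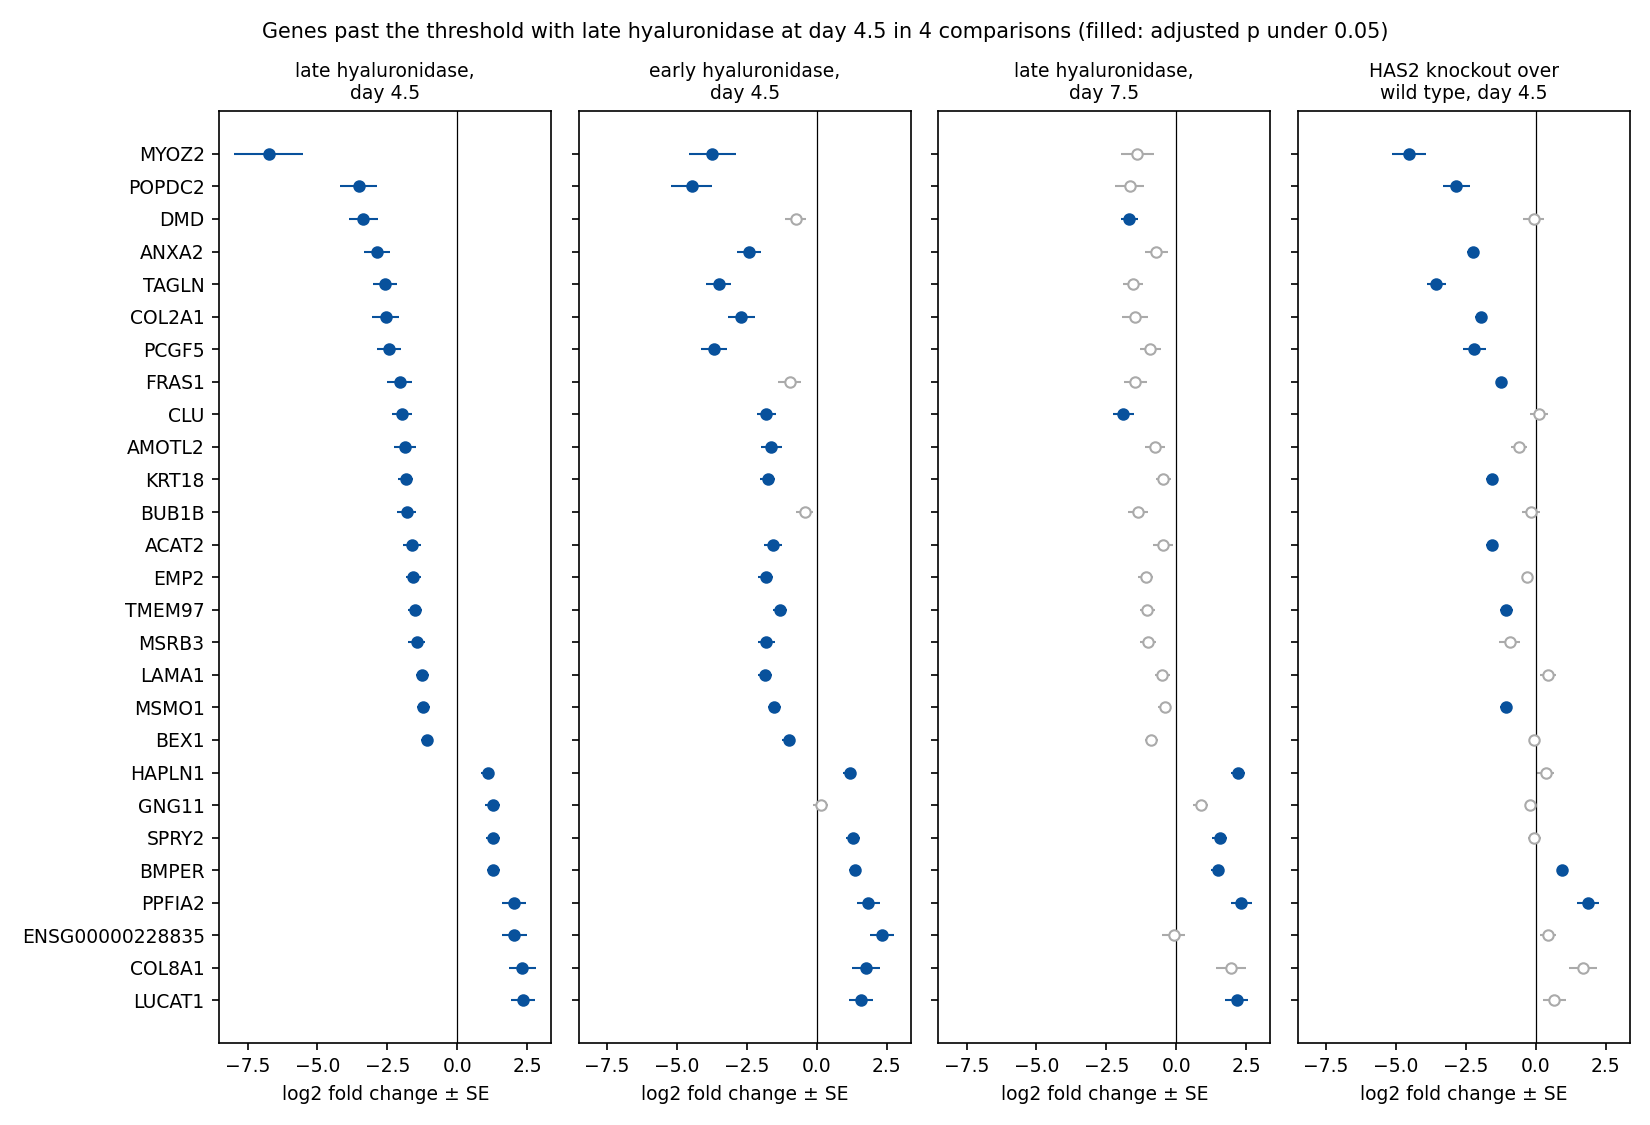
Log2 fold change ± SE of 27 of the 28 genes in 4 comparisons, filled where the adjusted p was under 0.05: late and early hyaluronidase at day 4.5 (shared untreated libraries), late hyaluronidase at day 7.5, and HAS2 knockout over wild type at day 4.5. In the knockout panel 13 genes are filled, 11 lower and 2 higher, and DMD, CLU, BUB1B, BEX1 and SPRY2 lie near 0.

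HAS2 knockout clones were compared with wild type at day 4.5 in 12 libraries that the enzyme comparison does not use. The 6 KO libraries came from 4 clones, 3 of them from clone cl4. The 6 wild-type libraries came from 4 lines, 2 each from those named WT and WT_TU and 1 each from cl43_WT_UT and TNT2. The fit took every library as independent, so its SEs and p-values count repeats of 1 clone or line as separate replicates. In 3 runs of library numbers the wild-type libraries lay 2, 2 and 2 and the KO libraries 1, 1 and 4. The 3′ reads of HAS2 did not check the label: HAS2 stood at 339 ± 133 CPM in wild type (SD, n = 6) and 351 ± 74.5 CPM in the knockout (SD, n = 6), and reads at a transcript's end do not show whether the protein can be made. The knockout changed 516 of 13797 genes (3.74%; 1.14% higher and 2.60% lower). With the run of library numbers as a term the count was 829. Of the 28 genes 13 were called there, all in the direction of the enzyme: MYOZ2, POPDC2, ANXA2, TAGLN, COL2A1, PCGF5, FRAS1, KRT18, ACAT2, TMEM97 and MSMO1 lower, BMPER and PPFIA2 higher. TAGLN was at 91 ± 16 CPM in wild type and 7.95 ± 3.05 CPM in the knockout (SD over 6 libraries; log2 fold change −3.56 ± 0.34, adjusted p by edgeR = 3.5e-09). ANXA2 was at 78.1 ± 20.2 CPM and 17.2 ± 3.85 CPM (−2.26 ± 0.19). The polycomb gene PCGF5 was at 59.2 ± 19.6 CPM in wild type and 13.5 ± 8.5 CPM in the knockout, COL2A1 at 460.0 ± 134 CPM and 124 ± 14.1 CPM, and BMPER at 77 ± 10.8 CPM and 154 ± 28.5 CPM. MYL7, not called with the enzyme, was called in the knockout (−3.45 ± 0.42, adjusted p = 9.5e-07), as was ANKRD1 (−5.20 ± 0.52, adjusted p = 1.0e-08). Of the same sterol list, chosen with fold changes of the enzyme seen, 17 of 25 were called lower in the knockout, 0 higher, with all 25 negative and a median of −1.05. Of the other genes called with the enzyme, DMD was at −0.08 ± 0.37, LAMA1 at 0.45 ± 0.29 and SPRY2 at −0.06 ± 0.23, none past the knockout's threshold. NR2F2, lower with the enzyme when the line was a block, was higher in the knockout (2.45 ± 0.41, adjusted p = 0.000177). The difference between enzyme and knockout effects was not tested. Mitosis and S phase had 3 of 28 called lower in the knockout and a median of −0.21.

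The wild-type course between day 2.5 and day 4.5, the window of the late exposure, was read from the genotype libraries (4756 of 13797 genes called, 34.5%; 18.6% higher and 15.9% lower). Of the 19 genes that the enzyme lowered, 6 rose over that window and 5 fell. MYOZ2, POPDC2, PCGF5 and MSRB3 were among those that rose: MSRB3 went from 5.19 CPM to 67.6 CPM (means of 6). ANXA2, CLU, KRT18, BUB1B and ACAT2 fell. Among the genes that the enzyme raised, GNG11, SPRY2, COL8A1 and LUCAT1 rose over the window and BMPER fell. All 24 tested filament genes of the sarcomere rose, with medians of 6.37 (thick) and 4.75 (thin), and all 28 genes of mitosis and S phase fell, with a median of −1.60.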

How the data were processed

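The authors deposited a table of whole-number read counts per Ensembl gene from QuantSeq 3′ libraries, made with featureCounts of Subread 1.6.2 on hg38/GRCh38, per the submitters' processing notes. The aligner, annotation release, strand setting and the handling of multiply mapped reads or molecular identifiers are not given in the sources used here. The table has 4 columns of no listed sample, which were not used. All 58735 gene IDs occur in GENCODE 29, the source of positions, and 58207 had a symbol. No row lacked a gene name.

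Genes passed filterByExpr (minimum count 10) over the 24 enzyme libraries, were scaled by TMM and were tested with edgeR 4.0.16 (R 4.3.3; quasi-likelihood, robust, 1 mean per group), two-sided, with Benjamini-Hochberg adjustment and a threshold of 0.05. Knockout and wild-type libraries (41) were fitted apart. CPM are counts over the library total. Floors of 3 counts cover counting error only. An exact permutation test of 3 against 3 cannot go below 0.1. Libraries were matched by line, since the same number marks the same line. The main test did not use this matching, and the line was a term only in the fits with it as a block. Deviations from the group means correlated at 0.289, 0.244 and 0.212 within lines and between −0.177 and −0.0492 across lines. Deviations within a group cancel out, so positive values within lines bring negative values across lines with them. The labels state at least 3 biological replicates per condition. In the enzyme arm each group held 1 library of each line, so replicate and line cannot be told apart. The p-values of the main fit measure the spread between libraries of different lines within groups, pooled over the 24 enzyme libraries.

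Named are called genes, the tested hyaluronan synthesis genes, up to 4 list members by smallest p with the first 2 of each list, up to 8 genes called only with the block, and the 4 highest and 4 lowest called fold changes of the late minus early and the day 7.5 comparisons. Other members named beside a list's count were picked after their values were seen. The comparison, genes and lists (32 from the labels and textbook knowledge, 3 added) were chosen with earlier results of these data known. Alternatives were DESeq2 1.42.0, other scaling and filters, the line as a block, the compared libraries alone, and leaving out libraries or lines. The edgeR code was tested on simulated data. Promoter sequences are from RefSeq (GRCh38.p14), and 18 of the 28 called genes have one there. Matches were listed only for MYOZ2, BUB1B, MSMO1 and TMEM97, which were picked. In each of them the GENCODE start of the gene lies inside the sequence shown. The BUB1B match and the last CCAAT of MSMO1 and of TMEM97 lie past that start, and the MEF2-type match of MYOZ2 spans it. Some results are not reported here.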

Additional observations from a re-analysis of the deposited data

Results flagged for a closer look

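8 genes are listed because the late and the early exposure differed from each other at day 4.5 in edgeR's quasi-likelihood test of that difference, and they are the 4 highest and 4 lowest such fold changes. Values are log2 fold changes of late minus early. DMD stood at −2.60, as described above. CCBE1 was at −2.48 (adjusted p = 0.0493), with 29.2, 12.1 and 13.4 CPM early, 2.16, 4.68 and 2.56 CPM late and 1.36, 7.99 and 6.95 CPM untreated. GPC3, a cell surface proteoglycan, was at −2.23 (adjusted p = 0.0145), with 51.5, 125 and 77.4 CPM early, 17.3, 20.3 and 14.7 CPM late and 19.1, 41.7 and 29.2 CPM untreated. TTK, the spindle checkpoint kinase MPS1, was at −1.94 (adjusted p = 0.0493), with 49, 14.7 and 23.3 CPM early, 7.19, 7.81 and 7.05 CPM late and 16.4, 21.3 and 15.3 CPM untreated. MYL3 was at 5.56 (adjusted p = 0.0277) and PPP1R14C at 4.37 (adjusted p = 0.0496; 0, 0.864 and 1.75 CPM early, 38.8, 14.1 and 5.77 CPM late). A2M (fitted 5.52, adjusted p = 0.0493) and the processed pseudogene ENSG00000257604 (fitted 6.30, adjusted p = 0.0284) had 0 counts in all early libraries, so these fitted values depend on the prior count and are no bound. Their late levels were 4.31, 7.03 and 1.28 CPM and 12.9, 3.12 and 5.13 CPM. The count of all genes called in this test was 46, and it was 2 without the early library of line TNNT2 and 3 without that of line TNNI1.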

How the results depend on the processing

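The count of 28 genes at day 4.5 was 90 with DESeq2 (21 higher, 69 lower), 165 without the filter on low counts, 201 with only the 6 libraries compared and 623 with these libraries and the line as a block. The replicate block alone gave 55, which held all 28. Leaving out 1 library gave 0 to 18, and leaving a line out of every group gave 15 (TNNI1), 4 (WT) and 0 (TNNT2). The late count of 84 at day 7.5 was 199 with DESeq2, 354 without the filter, 7 with only the libraries compared, 232 with these and the block, 132 with the block, 6 without line TNNI1, 1 without line TNNT2 and 3 to 377 without 1 library. For late minus early, 46 became 167 with DESeq2, 296 without the filter, 26 with only the libraries compared, 143 with these and the block and 96 with the block. It was 4, 129 and 0 without line TNNI1, WT and TNNT2, and 2 to 291 without 1 library. The change from day 4.5 to day 7.5, 0 in edgeR, was 1 with DESeq2, 6 without the filter and 3 with only the libraries compared and the block. The early count of 443 was 106 without line TNNI1, 58 without line TNNT2, 290 with only the libraries compared and the block, and 199 to 487 without 1 library. The knockout count of 516 was 829 with the library number as a block and 254 without the filter. HAS2 (0.64) passed only with the compared libraries and the block (0.633, adjusted p = 2.4e-04 by edgeR) and ranged from 0.409 to 0.787 without 1 library. RLE scaling, in place of TMM, kept all 28 genes. Causes were not tested. The all-gene median stayed within 0.1 of 0 in every setting. The fits on the compared libraries with the block, and those leaving out a line, were added after the data were seen. With 3 libraries a group and 3 counts at 1.92 to 2.66 CPM, depth limits genes such as MYOZ2, CCN2 and NPPA.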
